A study of Mus with 2 samples.

Results

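The genes for the protein part of the mitochondrial ribosome were followed across the cells of 2 single-cell RNA-Seq libraries of sorted mouse hematopoietic stem cells (HSCs), 1 library with Id2 and 1 without it. All rows whose gene symbol began with Mrpl or Mrps and a digit were taken, and rows named as pseudogenes were to be left out, of which there were 0. This gave 77 of the 27998 genes listed. Of these, 30 belonged to the large subunit and have a bacterial counterpart, 20 belonged to the large subunit and occur in mitochondria only, 16 and 10 were the same 2 classes of the small subunit, and 1, Mrps36, carries the name but is known as a subunit of the 2-oxoglutarate dehydrogenase complex.

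Mitochondria keep their own ribosome, which translates only the 13 proteins encoded in mitochondrial DNA, all of them subunits of the oxidative phosphorylation complexes. Its ribosomal RNAs are encoded in mitochondrial DNA, whereas its proteins are encoded in the nucleus, made in the cytosol and imported. The Mrpl proteins build the large subunit, which joins amino acids, and the Mrps proteins the small subunit, which reads the mRNA; the names are not strict, since Mrps18a and Mrps30 sit in the large subunit. HSCs are known for a low rate of mitochondrial respiration. In erythroid precursors the first and last steps of heme synthesis take place in mitochondria.

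The Id2+/+ library came from Mx1-Cre Id2+/+ mice and the Id2-deleted library from Mx1-Cre ID2Δ/Δ mice. Both genotypes carried Mx1-Cre, an interferon-inducible Cre that is active in blood cells and in other tissues, and both received pIpC, the inducer. For each genotype 1000 cells of the LSK FLT3- CD150+ CD48- gate were sorted from tibias and fibulas of 5 pooled mice aged 8 to 12 weeks and captured with 10x Genomics Chromium. One clause of the labels names Id2+/+ bones as the source of the deleted cells as well, and the groups follow the titles and the genotype field. The animals of a pool cannot be told apart, so there was 1 sample per genotype, no difference between genotypes has a replicate check, and no test between genotypes was possible. The 95% intervals given are exact Poisson intervals for levels and exact conditional intervals for ratios, and they cover counting error only.

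The libraries held 8612217 and 17140713 unique molecular identifiers (UMIs), in that order Id2+/+ and Id2-deleted, as throughout. Called cells numbered 349 and 632, of which 333 and 625 had under 10% mitochondrial UMIs. The 2 sets of called cells shared 1 barcode. Clusters with markers of another lineage, other than platelets and megakaryocytes, were set apart. This left 262 and 416 retained cells, with Hlf at 136 and 86.6 and Meis1 at 291 and 232 CPM (a gene's UMIs per 1000000 UMIs of those cells, pooled). The cells set apart were 35 and 156 erythroid-like cells, with Klf1 at 604 and 654 CPM, 27 and 40 neutrophil-like cells, with Elane at 21550 and 24639 CPM, and 9 and 13 hemoglobin-rich cells. Of 5 T and NK cell markers, Cd3e, Cd3d and Klrd1 were at 0 in retained, erythroid-like and neutrophil-like cells and Cd3g reached 0.937 CPM in 1 of these groups, whereas Nkg7 was at 102 and 124 CPM in retained and 1897 and 2248 CPM in neutrophil-like cells. Retained cells held 22 Id2 UMIs in the Id2+/+ library and 0 in the Id2-deleted library. Median depth in retained cells was 7081 and 9663 UMIs, against 37549 and 40038.5 in erythroid-like cells.

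The mitochondrial ribosomal protein genes were at their highest summed level in erythroid-like cells and at a higher level in the Id2-deleted than in the Id2+/+ library in retained, neutrophil-like and erythroid-like cells. Their sum in retained cells was 7621 CPM (interval 7504 to 7739) with Id2 and 8792 CPM (interval 8708 to 8878) without it. In neutrophil-like cells it was 8799 CPM (8531 to 9074) against 9392 CPM (9171 to 9618), and in erythroid-like cells 11194 CPM (11014 to 11376) against 12473 CPM (12386 to 12560). The order of the 3 kinds was the same in both libraries, and the intervals of neighboring kinds did not overlap within a library. The order of retained and neutrophil-like cells in the Id2-deleted library depended on the total, and it turned when cytosolic ribosomal protein and mitochondrially encoded genes were left out of it, to a ratio of 0.964 (0.940 to 0.990). Against retained cells at or above the median share of cell-cycle UMIs the ratio in that library, neutrophil-like over retained, was 1.005 (0.979 to 1.03). Hemoglobin-rich cells had 887 CPM (694 to 1117) and 689 CPM (544 to 861), on 72 and 77 UMIs in all. Hemoglobin transcripts took 87.2% and 88.3% of the UMIs of those cells, and as CPM of their other UMIs the 77 genes were at 6904 (5402 to 8695) and 5891 (4649 to 7363), a total chosen after seeing the data.

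**Figure D1:**
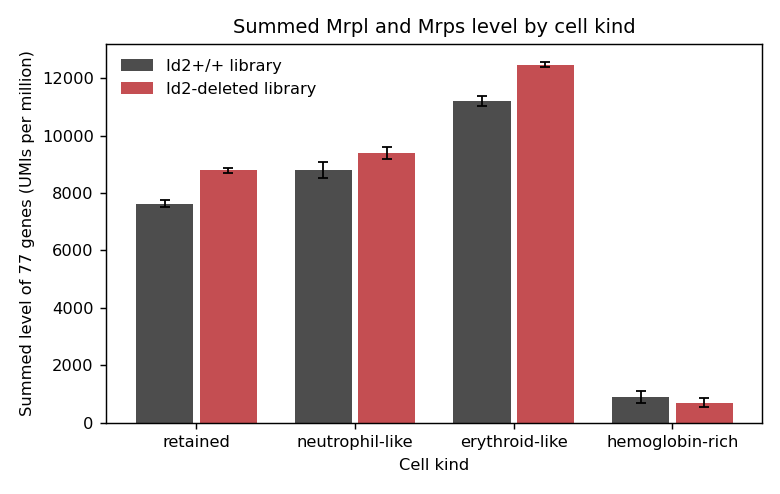
Summed level of the 77 genes in CPM, by cell kind, in the Id2+/+ (gray) and Id2-deleted (red) libraries. Bars are pooled counts of all cells of a kind in 1 library, and error bars are 95% Poisson intervals that cover counting error only. Erythroid-like cells are highest in both libraries, at 11194 and 12473 CPM.

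Single members differed widely in level, and the level was shared among many of them. In retained cells the members ran from 5.16 to 262 CPM in the Id2+/+ library, with a median of 84.8, and from 0.427 to 283 CPM in the Id2-deleted library, with a median of 95.6. The 10 highest members took 27.5% and 28.4% of the members' UMIs. By mean level over the libraries the highest were Mrpl52, at 262 and 281 CPM, Mrpl33, at 248 and 272 CPM, Mrps14, at 233 and 283 CPM, Mrpl23, at 228 and 256 CPM, Mrps33, at 223 and 249 CPM, and Mrpl12, at 190 and 256 CPM. These levels were not corrected for transcript length, so they do not rank the genes by number of transcripts. Of the 6, Mrpl52 and Mrps33 code for proteins without a bacterial counterpart, and Mrpl12 for the protein of the L7/L12 stalk, which recruits translation factors.

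No member was absent from the called cells. The lowest was Mrpl53, a mitochondria-only protein of the large subunit, with 29 UMIs in all called cells. Its gene, at chromosome 6, 83109108 to 83109932 (GRCm38), overlaps Ccdc142. It had 11 and 2 UMIs in retained cells, a ratio of 0.0828 (0.00892 to 0.379), and was the only member under the minimum of 20 UMIs, so counts of members below are over the other 76. In erythroid-like cells it had 6 and 9 UMIs.

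The 2 libraries were first compared in retained cells. The summed level was 1.15 times as high (1.13 to 1.17) in the Id2-deleted as in the Id2+/+ library. Of the 76 members, 67 had a log2 ratio above 0, with a median of 0.18 and quartiles of 0.13 and 0.28, whereas the median of all 10458 genes tested was -0.08. The ratios of single members were small: 11 members (14.5%) were at least 25% higher, against 11.7% of all genes, and 1 was at least 20% lower (the same fold downward), against 28.2% of all genes. These limits are what higher and lower mean in all counts below. Among genes with at least 100 UMIs these background shares were 10.4% and 18.5%, and the members' counts were still 11 and 1. On this scale the share of members past the fold upward was thus close to the background, whereas the share past it downward was far under it. With TMM scaling, which centers most genes between profiles, the median of all genes moved from -0.08 to 0.04, 34 members (44.7%) were higher and 0 lower, and the background was 20.5% higher and 20.6% lower, so that the reading of the upward share depended on scaling. Above the all-gene median lay 71 of 76 members, a count that scaling cannot change.

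**Figure D2:**
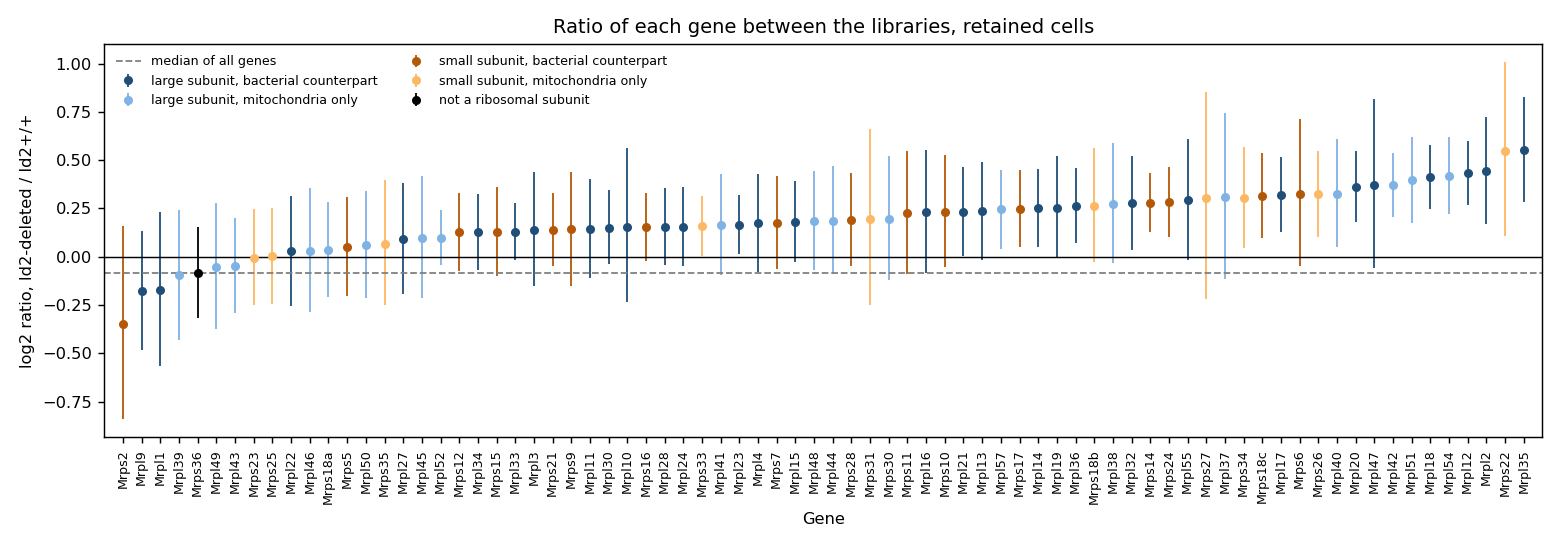
Log2 ratio of the Id2-deleted over the Id2+/+ library in retained cells for each of the 76 members with at least 20 UMIs, sorted, and colored by subunit and by whether a bacterial counterpart exists. Vertical lines are 95% counting intervals, and the dashed line is the median of all genes at -0.08. Most points lie above 0, and their intervals overlap widely.

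The 8 highest ratios among members with at least 30 CPM belonged to 7 large subunit genes and 1 small subunit gene. Mrpl35, the counterpart of a small bacterial large-subunit protein, stood at 70.3 CPM (150 UMIs) and 103 CPM (483 UMIs), a ratio of 1.47 (1.22 to 1.77). Mrps22, a mitochondria-only protein of the small subunit in which mutations cause mitochondrial disease, stood at 26.2 and 38.4 CPM, a ratio of 1.46 (1.08 to 2.01). Its direction depended on the cells taken, since in cells below the median share of cell-cycle UMIs its log2 ratio was -0.34. Mrpl2, the counterpart of bacterial L2 near the peptidyl transferase center, stood at 68.4 and 93.0 CPM, a ratio of 1.36 (1.12 to 1.65).

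Among highly expressed members the intervals were narrower. Mrpl12 stood at 190 CPM (172 to 209) against 256 CPM (242 to 271), which is 1.35 times as high (1.20 to 1.51). Mrpl54 had 132 and 176 CPM, a ratio of 1.34 (1.17 to 1.54). Mrpl18, whose bacterial counterpart binds 5S ribosomal RNA, had 189 and 252 CPM, a ratio of 1.33 (1.19 to 1.495). For these 3 genes the intervals of the 2 levels did not overlap. The mitochondria-only proteins Mrpl51, at 106 and 139 CPM, and Mrpl42, at 188 and 243 CPM, had ratios of 1.32 (1.13 to 1.54) and 1.29 (1.15 to 1.45).

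Among members with at least 30 CPM the lowest ratios were close to 1. Mrpl9 had 63.7 and 56.3 CPM, a ratio of 0.884 (0.716 to 1.10), and Mrpl1, the counterpart of the bacterial L1 stalk protein, 37.97 and 33.7 CPM, a ratio of 0.888 (0.675 to 1.18). Mrpl39, Mrps36, Mrpl49 and Mrpl43 had ratios of 0.935, 0.943, 0.965 and 0.969, and Mrps23 and Mrps25 of 0.997 and 1.001. The intervals of all 8 included 1, so no fall was detectable in any of them at this depth. With TMM scaling only Mrpl9 and Mrpl1 of the 8 stayed below 1, at 0.961 and 0.966, and Mrps36 was at 1.03. The 1 member past the fold downward, Mrps2, is under 30 CPM and was named after its value was seen. It had 25.8 and 20.3 CPM, on 55 and 95 UMIs, a ratio of 0.786 (0.558 to 1.12).

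The 4 structural classes had similar ratios. In retained cells the summed ratio was 1.18 (1.14 to 1.21) for large subunit proteins with a bacterial counterpart and 1.14 (1.10 to 1.19) for those of mitochondria only. For the small subunit it was 1.15 (1.10 to 1.19) and 1.14 (1.07 to 1.20). All 4 intervals overlapped. Mrps36, which is no part of the ribosome, stood at 105 CPM (91.7 to 120) with Id2 and 99.02 CPM (90.2 to 108) without it. Its ratio, 0.943 (0.802 to 1.11), had an interval below that of the large subunit proteins with a bacterial counterpart, which overlapped those of the other 3 classes.

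The libraries differed in which retained cells they held, and this moved with the ratio. The retained cells fell into 6 clusters, formed without the 77 genes, and most cells of each cluster came from 1 library. The cluster led by Fos and Dusp1 held 168 and 17 cells and had 6843 and 7127 CPM. The cluster led by Cd74 and H2-Aa held 6 and 176 cells and had 7107 and 7588 CPM. The cluster led by Pf4 and Gp1bb, platelet genes, held 9 and 74 cells and had the highest level of the 6 in both libraries, 9833 and 10111 CPM.

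Within a cluster the difference was mostly smaller than in the pool. The ratio was 1.04 (0.972 to 1.11) in the cluster led by Fos, 1.07 (0.941 to 1.22) in that led by Cd74, 1.05 (0.989 to 1.11) in that led by Ung, and 1.03 (0.974 to 1.09) in that led by Pf4, and all 4 of these intervals included 1. It was 1.10 (1.03 to 1.17) in the cluster led by Hist1h2bc, with 18 and 58 cells, and 1.19 (1.05 to 1.34) in that led by F2r, with 48 and 3 cells. The level was higher in the Id2-deleted library in 6 of 6 clusters, but cluster membership and library cannot be told apart. Without the cluster led by Pf4, an alternative chosen after the data were seen, the ratio over all retained cells was 1.11 (1.09 to 1.13), and 5 members (6.58%) were at least 25% higher, against 11.4% of all genes.

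The level also moved with the share of UMIs in cell-cycle genes. This share was 0.650% and 0.810% in retained cells, on 94 S and G2/M phase genes. Retained cells were divided at its median over both libraries, 0.470%. Within 10% of that value lay 22 and 23 cells below it and 16 and 29 cells at or above it. Cells below it had 6902 and 7607 CPM of the 77 genes, and cells at or above it 8320 and 9347 CPM. Within a library the upper part was thus 1.21 (1.17 to 1.24) and 1.23 (1.20 to 1.26) times as high. Between libraries the ratio was 1.10 (1.07 to 1.14) below the median and 1.12 (1.10 to 1.15) at or above it. The libraries also differed in the sex of their cells. Of the retained cells 84 and 231 held Xist and no Y-linked UMIs, and 93 and 90 the reverse, and the ratio was 1.11 (1.08 to 1.14) in the former and 1.16 (1.12 to 1.20) in the latter. The part of cluster, cycle or sex in the difference between the libraries was not tested further.

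Free RNA moved with the libraries as well. From hemoglobin transcripts, 10.5% and 5.41% of the UMIs of retained cells were estimated to be RNA from outside the cell, and droplets without a cell had the 77 genes at 9731 and 12160 CPM, above the level of retained cells. The part of free RNA in the difference was not tested beyond 1 alternative: with the profile of empty droplets subtracted the ratio was 1.17 (1.14 to 1.19), and 18 members (23.7%) were at least 25% higher, against 15.2% of all genes.

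The sum was also read cell by cell at equal depth, with 5800 UMIs drawn at random from each cell. The 66 Id2+/+ cells that were shallower were left out, which left 196 and 416 retained cells. They held 44.3 ± 9.77 and 49.0 ± 10.2 UMIs of the 77 genes (mean ± SD over cells), and 31.3 and 33.6 of the 77 genes were detected per cell, a difference of 2.31. Over 20 random draws this difference ran from 2.10 to 2.67. Before thinning the medians were 35 and 45.5 genes, at unequal depth. The 10th and 90th percentiles were 33 and 55.5 UMIs against 37 and 63, so the cells of the 2 libraries overlapped over most of their range. Cells of 1 library are not replicates, and these spreads describe the cells only.

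**Figure D3:**
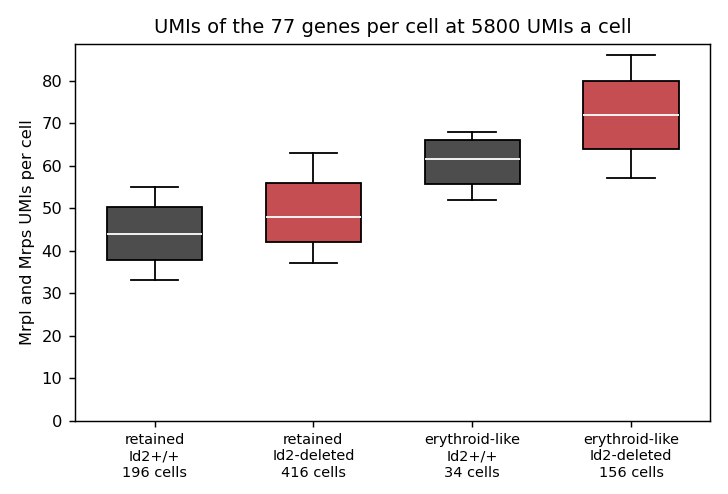
UMIs of the 77 genes per cell after thinning each cell to 5800 UMIs, in retained and erythroid-like cells of both libraries. Boxes are quartiles, white lines medians and whiskers the 10th and 90th percentiles over cells. Medians were 44 and 48 in retained cells, with overlapping boxes.

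The spread between cells exceeded counting noise in 5 of the 6 groups of cells. The variance of the member UMIs over their mean, which is 1 for counting noise alone, was 2.15 and 2.14 in retained cells and 0.958 and 2.17 in erythroid-like cells, the first of these on 34 cells, and 1.69 and 2.81 in the 27 and 40 neutrophil-like cells.

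In erythroid-like cells the libraries were compared next. The 77 genes were 1.11 times as high (1.09 to 1.13) in the Id2-deleted library. Of 76 members, 66 had a log2 ratio above 0, with a median of 0.15 against -0.03 for all genes. At least 25% higher were 7 (9.21%), against 12.5% of all genes, and lower were 3 (3.95%), against 24.2% of all genes. Without the limit on mitochondrial UMIs, 9 members (11.8%) were higher, against 10.7% of all genes, and 1 lower (1.32%), against 26.9%. The 7 were Mrpl1, Mrpl44, Mrpl45, Mrpl46, Mrps31, Mrps33 and Mrps34. The 3 were Mrps2, Mrps6 and Mrps27. These lists were read after the values were seen, and the intervals of many of the ratios overlapped those of retained cells.

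Mrpl1 shows this. Its level in erythroid-like cells was 34.9 CPM (25.5 to 46.5) with Id2 and 52.8 CPM (47.2 to 58.7) without it. The ratio was 1.51 (1.11 to 2.11), against 0.888 (0.675 to 1.18) in retained cells, and the 2 intervals overlapped. Mrps33 had 156 and 210 CPM in erythroid-like cells, a ratio of 1.34 (1.16 to 1.57), against 1.12 (1.003 to 1.246) in retained cells. Mrps34 had 104 and 142 CPM, a ratio of 1.37 (1.14 to 1.65), and 77.8 and 96.0 CPM in retained cells.

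The erythroid-like cells of the libraries fell largely into different clusters. Clusters from 1 library only were among them. That led by Mt2 and Car1, with 80 Id2-deleted cells, had 13072 CPM of the 77 genes, and that led by Hist1h2ap, with 27 Id2+/+ cells, had 11620 CPM. The second also had Mt2, Car1 and Klf1 among its 10 leading genes, so the 2 clusters were alike in these. Their part in the ratio of 1.11 cannot be told apart from the library. In neutrophil-like cells, which formed 1 cluster, the ratio was 1.07 (1.03 to 1.11), and the median log2 ratio was 0.07 against -0.01 for all genes. At least 25% higher were 12 of 76 members (15.8%, against 18.7% of all genes) and lower were 8 (10.5%, against 23.5%). Marker levels moved with this ratio. All 10 neutrophil markers were higher in the Id2-deleted cells, from 71074 to 91240 CPM in sum, among them the granule genes Ngp, at 1769 and 3878 CPM, Camp, at 1806 and 3996 CPM, and Ltf, at 262 and 641 CPM. Of 6 platelet and megakaryocyte markers 5 were higher, with a sum of 60.6 and 377 CPM that was mostly Pf4, at 36.8 and 333 CPM. Of 6 monocyte and dendritic markers 5 were higher, with sums of 193 and 407 CPM. Erythroid markers went the other way, with 1 of 12 higher and sums of 1455 and 907 CPM. So did stem cell markers, with 2 of 10 higher and sums of 90.9 and 45.4 CPM. The part of these marker differences in the ratio was not tested.

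Cell kinds were then compared within each library. Erythroid-like cells exceeded retained cells 1.47-fold (1.44 to 1.502) in the Id2+/+ library and 1.42-fold (1.40 to 1.44) in the Id2-deleted library. Of 76 members, 45 (59.2%) were at least 25% higher in both libraries, against 21.4% of all genes, and 0 were lower in both, against 41.7% of all genes. The median log2 ratio of the members was 0.45 and 0.44, whereas that of all genes was -0.27 and -0.30. With TMM scaling the all-gene medians moved to -0.02 and -0.11 and the members' to 0.70 and 0.62, and the summed ratios were 1.74 and 1.61. Without scaling, 51 and 49 members were higher in the libraries taken singly, against 27.0% and 25.4% of all genes. Lower were 2 and 4, against 48.3% and 49.3%. With TMM scaling 62 and 61 members were higher, against 36.6% and 32.5% of all genes, and 0 and 1 lower, against 39.5% and 43.1%. In both libraries 60 members (78.9%) were then higher, against 29.3% of all genes, and 0 lower, against 34.6%. With no genotype in the contrast, each library gave its own value for each member: 62 members were above 0 in both, 9 below 0 in both and 5 on opposite sides. Over the 76 members the libraries' log2 ratios had a Pearson r of 0.88, as a description, against 0.92 over all genes.

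The erythroid-like cells had more cycle genes, at 1.76% and 1.94% of UMIs, and more UMIs per cell, and the part of these in the difference was not tested. Against retained cells at or above the median cycle share alone, the fold was 1.35 and 1.33.

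**Figure D4:**
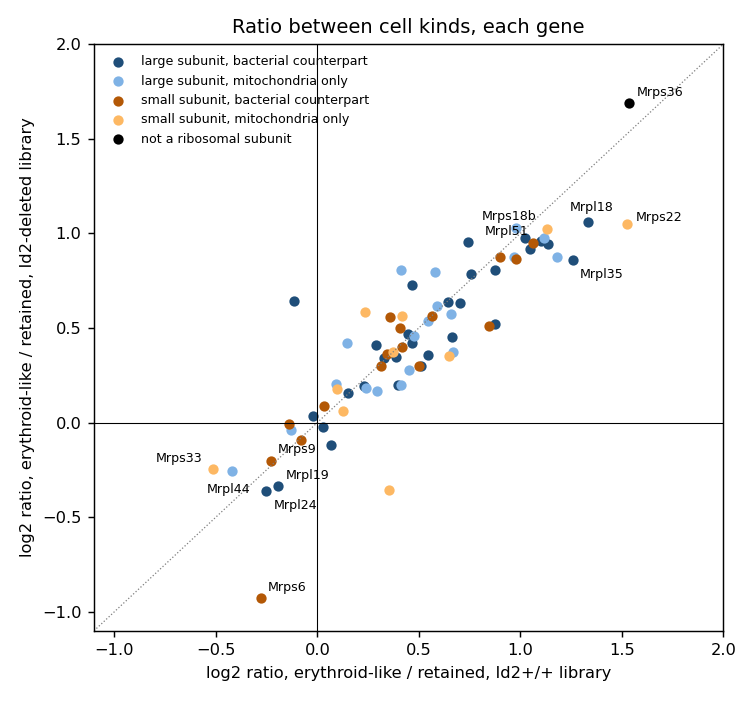
Log2 ratio of erythroid-like over retained cells for each of the 76 members, in the Id2+/+ library (x axis) and the Id2-deleted library (y axis), colored by structural class, with the dotted line marking equal values. Points lie mostly above 0 on both axes, with Mrps36 at 1.54 and 1.69, and Mrps6 lowest on the y axis at -0.93.

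Mrps36 stood at the top. It had 105 and 99.02 CPM in retained cells and 305 and 320 CPM in erythroid-like cells, 2.90-fold (2.46 to 3.43) and 3.23-fold (2.92 to 3.58) higher. Neutrophil-like cells had 121 CPM (91.6 to 157) and 169 CPM (141 to 202). The gene that is not part of the ribosome thus had the largest cell-kind difference of the 76 by mean log2 ratio.

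Of the ribosomal members, Mrps22 was next, with 75.8 and 79.5 CPM in erythroid-like cells, 2.89-fold (2.06 to 4.08) and 2.07-fold (1.74 to 2.47) the level of retained cells. Mrpl18 reached 478 and 526 CPM, 2.52-fold (2.22 to 2.87) and 2.09-fold (1.95 to 2.23) higher. Mrps18b was 2.19-fold (1.74 to 2.76) and 2.03-fold (1.80 to 2.31) higher, Mrpl35 2.39-fold and 1.82-fold, and Mrpl51 2.17-fold and 1.97-fold. Mrpl52, the member with the highest mean level in retained cells, stood at 517 and 572 CPM, whereas it had 121 and 132 CPM in neutrophil-like cells, lower than in retained cells.

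A few members ran the other way. Mrps33, one of the 6 highest in retained cells, had 156 CPM (136 to 179) and 210 CPM (199 to 222) in erythroid-like cells, 0.700 (0.592 to 0.826) and 0.843 (0.778 to 0.913) of the level in retained cells. Mrps6 had 31.1 and 25.03 CPM, 0.819 (0.548 to 1.21) and 0.526 (0.426 to 0.648) of that level. Its gene, at chromosome 16, 92058336 to 92112227 (GRCm38), overlaps Slc5a3, and the strand used in counting is not given in the sources used here. Mrpl44, which has a ribonuclease III fold, was at 0.743 (0.549 to 0.997) and 0.837 (0.726 to 0.965), and Mrpl24, Mrpl19 and Mrps9 were between 0.778 and 0.873. With TMM scaling Mrps33, Mrps6, Mrpl44 and Mrpl24 stayed below 1 in both libraries, whereas Mrpl19 and Mrps9 turned to 1.04 and 1.01 in the Id2+/+ library. Mrpl33 and Mrpl23, also among the 6 highest in retained cells, had ratios between 0.984 and 1.02. Mrpl33 instead stood highest in neutrophil-like cells, at 472 CPM (411 to 539) and 584 CPM (529 to 642), against 248 and 272 CPM in retained cells.

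By class, erythroid-like cells were 1.51-fold and 1.42-fold higher for large subunit proteins with a bacterial counterpart and 1.498-fold and 1.47-fold for those of mitochondria only. For the small subunit the folds were 1.38 and 1.35 with a bacterial counterpart, and 1.24 (1.16 to 1.34) and 1.24 (1.19 to 1.29) without one. The mitochondria-only small subunit proteins were lowest in both libraries, with an interval below those of both large subunit classes in each. Mrps33, at 0.700 and 0.843, is 1 of these 10 genes and had the highest level of them in retained cells. This order rested on it: without Mrps33, an alternative chosen after the data were seen, the other 9 genes had folds of 1.46 (1.34 to 1.59) and 1.40 (1.34 to 1.46) and were no longer lowest.

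Neutrophil-like cells differed less from retained cells. The summed level was 1.15-fold (1.12 to 1.20) and 1.07-fold (1.04 to 1.10) higher, and the median log2 ratio was 0.08 and -0.01, against -0.45 and -0.51 for all genes. In the Id2-deleted library the sum and the median thus differed in sign, and the direction of the sum depended on the total, as given above. Cytosolic ribosomal protein genes were 0.836 and 0.767 of the retained level in neutrophil-like cells, and 1.09 and 0.997 of it with TMM scaling.

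The 3 genes related to bacterial S18 can be set side by side. Mrps18c had 110.6 and 137 CPM in retained cells, a ratio of 1.24 (1.07 to 1.45), and 164 and 203 CPM in erythroid-like cells. Mrps18b had 62.3 and 74.9 CPM, a ratio of 1.20 (0.981 to 1.48), and 136 and 152 CPM in erythroid-like cells. Mrps18a, the paralog of the large subunit, had 94.2 and 96.5 CPM, a ratio of 1.02 (0.865 to 1.22), and 131 and 133 CPM in erythroid-like cells. The intervals of the 3 genotype ratios overlapped, and in erythroid-like over retained cells Mrps18b exceeded the other two, with intervals that did not overlap theirs in the Id2-deleted library.

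Proteins of the same ribosome with other names were read next. The 6 genes Dap3, Chchd1, Ptcd3, Aurkaip1, Gadd45gip1 and Ict1 summed to 648 and 740 CPM in retained cells, a ratio of 1.14 (1.07 to 1.22), with 5 of 6 above 0 (83.3%, against 41.0% of all genes) and 0 at least 25% higher (against 11.7%). Chchd1 had a ratio of 1.24 (1.10 to 1.42), Ptcd3 of 1.24 (0.924 to 1.68), Aurkaip1 of 1.16 (1.01 to 1.32), Gadd45gip1 of 1.14 (1.003 to 1.30) and Ict1, a peptidyl-tRNA hydrolase built into the large subunit, of 1.07 (0.872 to 1.32). Dap3, a GTP-binding protein of the small subunit, had 0.967 (0.816 to 1.15). In neutrophil-like cells the 6 had a ratio between the libraries of 1.01 (0.878 to 1.16) and a median log2 ratio of -0.07, with 2 of 6 above 0, where the 77 genes had 50 of 76 above 0. In erythroid-like over retained cells the 6 were 1.61-fold and 1.55-fold higher. By mean of both libraries the largest folds were those of Gadd45gip1, at 2.15 and 1.901, and Dap3, at 1.81 and 2.09.

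In retained cells the lists that work with the ribosome had lower summed ratios between the libraries than the ribosome itself. The 11 translation factors had a summed ratio of 1.01 (0.928 to 1.10) and a median log2 ratio of -0.14, with 1 higher (9.09%) and 2 lower (18.2%), against 11.7% and 28.2% of all genes. The 17 mitochondrial aminoacyl-tRNA synthetases, which load amino acids onto tRNA, had 1.003 (0.920 to 1.09) and -0.01, with 2 higher (11.8%) and 3 lower (17.6%). The 16 assembly factors had 0.944 (0.875 to 1.02) and -0.10, with 1 higher (6.25%) and 3 lower (18.8%). All 3 intervals lay below that of the 77 genes, 1.13 to 1.17. For the translation factors and the synthetases the sum and the median differed in sign, and with TMM scaling the 3 sums were 1.10, 1.09 and 1.03, against 1.254 for the 77 genes. Low counts bore on these lists: among genes with at least 100 UMIs the translation factors had 1 higher and 1 lower, the assembly factors 0 and 2, and the synthetases 0 and 0 with a median of 0.01, the sign of their sum. In erythroid-like cells the synthetases had 1.03 (0.945 to 1.13) and the assembly factors 1.05 (0.960 to 1.15), intervals that overlapped that of the 77 genes there, and the translation factors 0.934 (0.855 to 1.02). These lists had low counts, with 758 to 1016 UMIs in Id2+/+ retained cells against 16259 for the 77 genes.

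Single genes of these lists ran in both directions, and those with a mean of at least 30 CPM in retained cells are given first. Tsfm, the exchange factor of the elongation factor Tufm, had 67.0 and 83.7 CPM, a ratio of 1.248 (1.03 to 1.52), and Tufm itself 45.0 and 45.9 CPM, a ratio of 1.02 (0.798 to 1.31). Mtif2, the initiation factor, had 0.858 (0.686 to 1.08) and Guf1, an elongation factor 4 homolog, 0.893 (0.704 to 1.14). Among synthetases Rars2 had 1.22 (0.923 to 1.62) and Fars2 1.10 (0.824 to 1.49), and Cars2 and Yars2 had 1.01 and 0.971. Among assembly factors Rbfa had 1.09 (0.920 to 1.30) and Noa1 0.937 (0.736 to 1.20), and the helicase Dhx30 and the GTPase Mtg2 had 0.822 (0.660 to 1.03) and 0.786 (0.584 to 1.06). Of these ratios given with an interval, that of Tsfm alone excluded 1. Apart from Mtg2, the genes of these lists past the fold lay below 30 CPM, and they are named here after their values were seen. The release factor Mtrf1 had 13 and 96 UMIs, a ratio of 3.36 (1.88 to 6.54), and the assembly factor Mettl17 had 33 and 35 UMIs, a ratio of 0.483 (0.291 to 0.802). The intervals of the other genes, Sars2, Mars2 and Tfb1m above 1 and Pars2, Ears2, Aars2, Mtrf1l, Gfm2 and Eral1 below it, included 1.

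**Figure D5:**
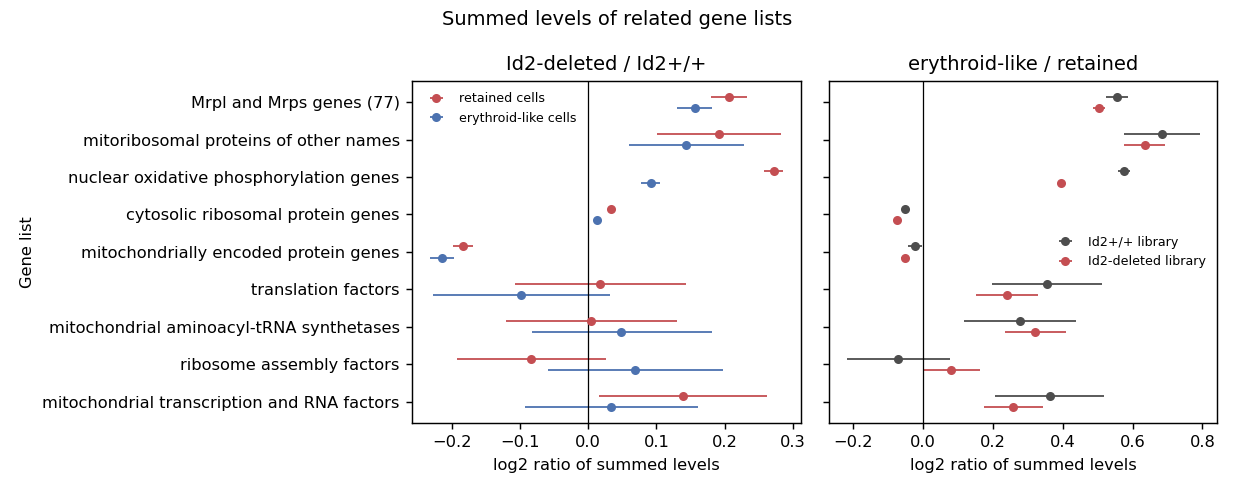
Log2 ratio of the summed level of each gene list, between the libraries in retained and erythroid-like cells (left) and between erythroid-like and retained cells in each library (right). Horizontal lines are 95% counting intervals. The 77 genes, the other mitoribosomal proteins and the nuclear oxidative phosphorylation genes lie above 0 in both panels, at different values, and mitochondrially encoded genes lie below 0 on the left.

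The nuclear and the mitochondrial genes for the proteins of oxidative phosphorylation differed in direction between the libraries, under TMM scaling also, with 1.31 and 0.958 in retained cells. The nuclear genes, 79 of 85 tested, had a summed ratio of 1.21 (1.20 to 1.22) in retained cells and a median log2 ratio of 0.28, with 26 higher (32.9%, against 11.7% of all genes) and 0 lower. The 13 mitochondrially encoded protein genes, the templates that the mitochondrial ribosome reads, had a summed ratio of 0.881 (0.871 to 0.890), with 1 of 13 above 0 (7.69%, against 41.0% of all genes) and 3 lower (23.1%, against 28.2%). The gene above 0 was mt-Nd4l, at a log2 ratio of 0.44, and mt-Atp6 and mt-Co3, the highest of them, were at -0.13 and -0.22. In erythroid-like cells the nuclear list had 1.07 (1.06 to 1.08) and the mitochondrial list 0.862 (0.852 to 0.873). The limit of 10% mitochondrial UMIs per cell acts on the mitochondrial list. Without it the retained cells still numbered 262 and 416, and the erythroid-like cells 51 and 163.

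The cytosolic ribosome was compared in the same way. Its 86 genes, taken by name with paralogs included, summed to 30.2% and 31.0% of all UMIs of retained cells, a ratio of 1.02 (1.02 to 1.03), with 2 of 83 tested genes higher (2.41%, against 11.7% of all genes) and 13 lower (15.7%, against 28.2%). The 2 higher ones were Rps27l, a paralog of Rps27, and Rps19bp1, which encodes a protein that binds Rps19 and is not part of the ribosome. Some lower ones, named after their values were seen, were far lower, and about alike in all 3 kinds of cells. Rps12 had log2 ratios of -2.27 in retained, -2.26 in erythroid-like and -1.86 in neutrophil-like cells, Rpl10 of -1.54, -1.69 and -1.86, and Rpl9 of -1.34, -1.36 and -1.20. The libraries thus differed in single genes in the same way across kinds, and the part of such an offset between libraries in the ratios of the 77 genes was not tested. In erythroid-like over retained cells they were at 0.964 and 0.950, where the 77 genes were 1.47 and 1.42, and the nuclear oxidative phosphorylation genes 1.49 and 1.32. The mitochondrially encoded genes were at 0.985 and 0.964 there. Both of these lists turned above 1 with TMM scaling, the cytosolic to 1.14 and 1.08 and the mitochondrial to 1.17 and 1.10, below the 1.74 and 1.61 of the 77 genes. The 10 mitochondrial transcription and RNA factors had a ratio of 1.10 (1.01 to 1.20) between the libraries in retained cells, with 0 higher, 3 of 10 lower (near the 28.2% of all genes) and a median log2 ratio of -0.08, equal to that of all genes at 2 decimals. Among the 6 of them with at least 100 UMIs, 0 were lower and the median was 0.07.

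In the genome the 77 genes lay apart from each other. All matched RefSeq genes of GRCm38.p6, on 17 chromosomes, with 0 on X or Y and at most 10 on 1 chromosome, 11. One pair were direct neighbors, Mrpl46 and Mrps11 on chromosome 7, with 41 bases between them. Of the 77, 20 overlapped another protein-coding gene (26.0%, against 17.5% of all RefSeq coding genes), and 47 overlapped one or lay within 1000 bases of one (61.0%, against 31.6%). Some of these neighbors also serve mitochondria, such as Ndufs6, a complex I subunit, 21 bases from Mrpl36, and Sars2, a mitochondrial synthetase, 136 bases from Mrps12. Mrpl51, at chromosome 6, 125192200 to 125194392, lay 100 bases from Ncapd2, and Mrpl54, at chromosome 10, 81264722 to 81266926, 9 bases from Apba3. Among the 8 highest genotype ratios, Mrpl18, at chromosome 17, 12911345 to 12917787, overlapped the chaperonin gene Tcp1, and Mrpl2, at chromosome 17, 46646172 to 46650132, overlapped Klc4. For overlapping genes, reads of the partner may be counted for either gene.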

How the data were processed

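The authors captured sorted cells with 10x Genomics Chromium, and the submitters' processing notes name Cell Ranger 2.2.0 and mm10. They deposited, per library, raw UMI counts of 27998 genes in 737280 barcodes, with no normalization or cell filter. Whether the kit reads the 3′ or 5′ end is not given in the sources used here. From these counts, barcodes with at least 10% of the 99th percentile of the 1000 deepest were called cells, and those at or above 10% mitochondrial UMIs were dropped. The shallowest called cells held 4419 UMIs in the Id2+/+ and 6181 in the Id2-deleted library, so shallower cells entered the Id2+/+ pool only. Doublets were not removed in the values reported.

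Cells of both libraries were clustered together with scanpy 1.11.5 (2000 variable genes, the 77 genes left out, 20 components, 15 neighbors, Leiden resolution 1). A cluster was set apart where at least 4 markers of another lineage were over 2-fold higher in it and in 25% of its cells. Its stem cell markers also had to be low. At 5% or more hemoglobin UMIs it was called hemoglobin-rich. Platelet and megakaryocyte markers were not used to set clusters apart, so the cluster led by Pf4 stayed among the retained cells. Counts were summed per cell kind and library and divided by the total (CPM). Log2 ratios added 0.5 to each count, genes needed 20 UMIs over the pair compared, and with 1 library per genotype a gene counted as higher at 25% or more above, and as lower at 20% or more below, with no p-value. Depth was 8612217 and 17140713 UMIs, of which 47.7% and 69.3% lay in called cells.

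The members and gene lists were chosen with earlier results of these data known. Named members were the 8 highest and 8 lowest ratios at a mean of 30 CPM or more in retained cells, the 6 highest levels, the 6 highest and 6 lowest ratios of erythroid-like over retained cells that had 1 direction in both libraries, the Mrps18 paralogs and Mrps36, the mitoribosomal proteins of other names, and the 2 highest and 2 lowest ratios of 3 related lists at the same minimum of 30 CPM. A count of 0 allows up to 3 counts. Alternatives covered cell calling, filters, clustering, scaling, the fold and parts of the cells. Intervals used scipy 1.17.1. They were tested on counts simulated with counting noise alone, which they assume, so this test does not bear on the spread between cells. TMM scaling used edgeR 4.0.16 for its factors only. Promoter motifs and sequences were not analysed here, and 1 marker level and the values of 1 erythroid-like cluster are not reported here.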

Additional observations from a re-analysis of the deposited data

How the results depend on the processing

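No paired analysis was possible because there was a single library of each genotype, and leaving out replicates was not possible either. The summed ratio between the libraries stayed above 1 in retained and in erythroid-like cells under all alternatives that gave it a value; the cause of each move below was not tested, apart from the alternatives that take fewer cells or genes. With no other cell type removed, the ratio over all cells was 1.22, the median log2 ratio 0.28, and 28 members (36.4%) were higher and 2 lower, against 12.03% and 35.5% of all genes. With TMM scaling the ratio was 1.254 in retained cells (median 0.30, 34 members higher, 0 lower) and 1.16 in erythroid-like cells (11 or 14.5% higher, 1 lower, against 16.7% and 21.1% of all genes); erythroid-like over retained cells gave 1.74 and 1.61, and neutrophil-like over retained cells 1.504 and 1.39. With the empty-droplet profile subtracted the median was 0.21, 18 members were higher (15.2% of all genes), and erythroid-like over retained cells gave 1.52 and 1.45. Taking retained cells with Xist but without Y-linked UMIs, the ratio was 1.11 (median 0.15, 2 lower, against 26.5% of all genes), with 1.38 and 1.39 for erythroid-like and 1.08 for neutrophil-like over retained cells of the Id2+/+ library; in retained cells with Y-linked UMIs and without Xist 27 members (35.5%) were higher and 4 lower, against 19.0% and 29.7% of all genes, with 1.51 and 1.46 for erythroid-like over retained cells. Below the median cycle share the ratio was 1.10 (median 0.12, 5 lower, against 25.6% of all genes), the erythroid-like folds 1.62 and 1.64 and the neutrophil-like folds 1.27 and 1.23, and the log2 ratio of Mrps22 turned to -0.34; at or above it these were 1.12, 1.35 and 1.33, and 1.06 and 1.005. A fold of 1.5 left 0 members higher and 0 lower in either kind (against 3.30% and 13.5% of all genes in retained and 4.77% and 12.8% in erythroid-like cells), and 22 (28.9%, against 14.0% of all genes) higher in erythroid-like cells of both libraries. These counts used log2 ratios with 0.5 added to each count, and Mrpl1 in erythroid-like cells was past that fold only without the addition. Without a low-count filter 2 members were lower in retained cells, against 36.2% of all genes. In erythroid-like cells the number of lower members fell to 1 without Scrublet doublets (3 and 1 cells), with the mean over cells, and without the mitochondrial filter, against 24.2%, 25.7% and 26.9% of all genes, and without that filter the ratio was 1.14. The mean over cells gave 1.51 and 1.47 for erythroid-like over retained cells, and a cell limit of 1000 UMIs and 500 genes gave 1.45 in the Id2-deleted library. The following alternatives were chosen after seeing the data. With totals free of cytosolic ribosomal and mitochondrially encoded genes, neutrophil-like over retained cells fell to 1.08 and, in the Id2-deleted library, turned to 0.964, and erythroid-like over retained cells gave 1.39 there. Without the cluster led by Pf4 the ratio was 1.11 (median 0.14, 5 higher, 11.4% of all genes), and erythroid-like and neutrophil-like over retained cells gave 1.51 and 1.14 in the Id2-deleted library. Cluster resolution 0.5, the number of cells in the labels and a minimum of 100 UMIs moved no summed ratio on the 77 genes in retained and erythroid-like cells beyond its counting interval. They moved no count between the libraries there, and no count of members past the fold in both libraries, by over 1.5 times. Within the Id2-deleted library, the number of cells in the labels moved the members lower in erythroid-like over retained cells from 4 to 2, against 49.3% and 49.6% of all genes. In neutrophil-like cells a minimum of 100 UMIs left 42 of 76 members between the libraries, with 5 higher and 1 lower, against 13.1% and 11.5% of all genes, in place of 12 and 8, and a median of 0.12, and it moved the median over retained cells of the Id2+/+ library to 0.18. Depth limits single members: in retained cells Mrps22, on 56 and 180 UMIs, had an interval of 1.08 to 2.01, and Mrpl12, on 405 and 1200 UMIs, of 1.20 to 1.51.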
